A study of Mus musculus with 7 samples.

Results

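The cytochrome P450 genes of the mouse were followed in the kidneys of male Slc7a9-/- mice that did or did not drink L-ergothioneine. The set was taken by name: every protein-coding gene of GENCODE release M21 (GRCm38) whose symbol begins with Cyp and a digit, less Cyp51, Cyp24a1 and Cyp27b1. Of 100 such symbols 97 remained, and all 97 were among the 45706 genes of the deposited tables. The naming rule uses no expression value, but the family was taken up with earlier results of these data known.

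All 7 mice were male, 6 months old and homozygous for the loss of Slc7a9, the gene for the light chain through which the renal tubule takes up cystine. Mice without it lose cystine into the urine and serve as a model of cystinuria. The untreated group held 3 mice. The other 4 mice received L-ergothioneine, a sulfur-containing antioxidant from the diet, in their drinking water at 16 mg/kg/day. No wild-type kidney was compared, and the labels used here do not give strain background, length of treatment, time of day, litter or cage. All p-values below measure only the spread between these kidneys.

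Cytochrome P450 enzymes are haem proteins that insert an oxygen atom into lipids, steroids, retinoids and foreign compounds, with electrons passed on mostly by the reductase encoded by Por. In the kidney they are best known for turning arachidonic acid into epoxides (Cyp2c and Cyp2j enzymes) and hydroxylated fatty acids (Cyp4a enzymes), lipids that act on vessels and on salt transport. Many are made in the proximal tubule, and a number of them differ between male and female mice.

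The feature shared by the family is the loop that holds the haem iron through a cysteine. The coding sequences of 92 of the 97 genes, read from the GENCODE M21 transcript with the longest coding part, held the full loop of 10 residues: phenylalanine, 2 of any kind, glycine, 3 of any kind, the cysteine, 1 of any kind and glycine. The genes without a full match were Cyp20a1, Cyp2b10, Cyp2s1, Cyp3a59 and Cyp8b1. The 30 bases that encode the loop are printed for the 4 genes that passed the test between the groups, because they show how close the members are where the haem binds. They run 5′ to 3′ on the coding strand, with the cysteine codon in capitals.
Cyp4b1: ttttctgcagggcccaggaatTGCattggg
Cyp2e1: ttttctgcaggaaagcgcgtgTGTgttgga
Cyp2j13: ttttcaatgggaaagcgagctTGCctcgga
Cyp2j9: ttctcaatgggaaaacgtgctTGTcttgga
Counted from the first base of the start codon, these stretches were bases 1336 to 1365 of Cyp4b1, 1288 to 1317 of Cyp2e1, 1324 to 1353 of Cyp2j13 and 1321 to 1350 of Cyp2j9.

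Similar copies matter for the counts as well. Estimated counts, in which reads can be split between copies, were not whole numbers in 9.57% of the P450 values, against 3.61% over all genes. Values of 0 count as whole in both shares. Counts were present in 82 of the 97 P450 genes but in only 23048 of the 45706 genes, so the 2 shares are not on equal terms. Of the 41 genes that could be tested, 9 shared over 25% of their windows of 50 nt with a transcript of another gene and 11 shared none. Among the tested genes the largest shares were those of Cyp2c69 (54.8%), Cyp4a12b (49.4%), Cyp4a12a (48.9%), Cyp2a5 (40.8%) and Cyp2d10 (40.5%). Of the genes that passed the test, Cyp2j9 shared 0%, Cyp2j13 0.139%, Cyp2e1 4.76% and Cyp4b1 10.3%, with 5.26% of the last shared with the pseudogene Cyp4b1-ps2.

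Libraries held 14843899 to 19791575 counts. Short non-coding RNA made up 12.2% and 16.2% of the deposited TPM (a relative level corrected for transcript length) in untreated libraries 1 and 2 but 37.5% to 48.7% in the other 5, against 0.428% to 2.79% of the counts. TPM is therefore used below to rank genes and as shares within the P450 set, and CPM (counts scaled to a common library size with TMM) to compare the groups.

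Few P450 genes made up most of the P450 transcripts of these kidneys. A mean of at least 1 TPM was reached by 34 of 97 genes, of at least 10 TPM by 21 and of at least 100 TPM by 11. Cyp4b1, a hydroxylase of fatty acids that also activates some lung and kidney toxins, was the most abundant. It stood at 2380, 1798 and 1803 TPM without and 1058, 862, 1155 and 827 TPM with ergothioneine, or 28.1% of all P450 TPM on average (range over libraries 22.5% to 37%). Cyp2j5, an arachidonate epoxygenase of the proximal tubule, followed with 12.9% of P450 TPM, then Cyp2e1, which oxidises ethanol, acetone and other small molecules, with 12.4%. Cyp2a4, a steroid hydroxylase, took 9.26%, and the fatty acid hydroxylase Cyp4a10 took 8.71%. Behind them came Cyp4a31 (6.3%), Cyp4a14 (3.9%), Cyp2j11 (2.84%), Cyp2d9 (2.45%) and Cyp2d12 (2.38%). These 10 genes together held 89.3% of P450 TPM. Cyp2j5 and Cyp2e1 traded places between libraries, since Cyp2j5 ranged from 11.5% to 14.2% and Cyp2e1 from 8.69% to 15.8%.

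**Figure D1:**
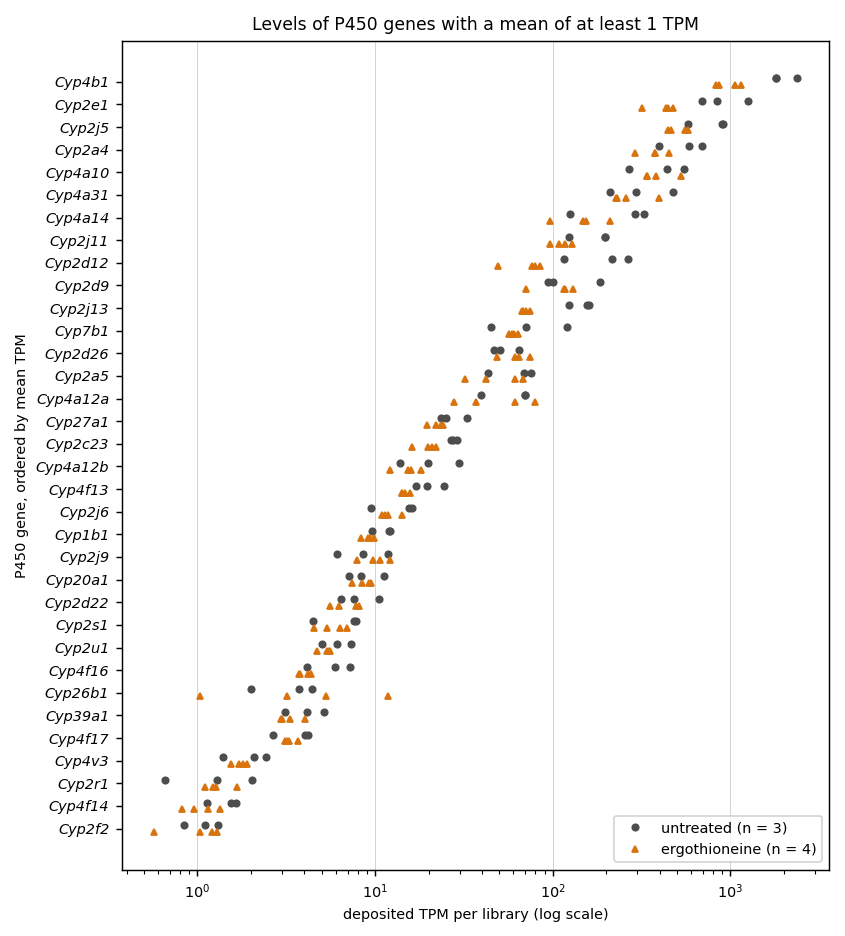
Deposited TPM per library (horizontal log axis) of the 34 P450 genes with a mean of at least 1 TPM, ordered by mean; circles are the 3 untreated and triangles the 4 ergothioneine libraries. Cyp4b1 stands alone at the top, and the untreated circles are spread more widely than the triangles for most abundant genes.

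The families known from liver and adrenal gland were at the other end. All 9 Cyp3a genes and all 5 Cyp2b genes had too few counts to be tested, as did 13 of 15 Cyp2c genes. Of the 6 genes of steroid hormone synthesis (families Cyp11, Cyp17, Cyp19 and Cyp21) none could be tested. Cyp17a1, which makes androgen precursors in gonads and adrenal, had 1, 2 and 6 counts without ergothioneine and 3, 4, 1 and 5 with it. Cyp11a1, which cuts the cholesterol side chain, had 2 counts over all 7 libraries and Cyp11b1, of corticosteroid synthesis, had 1. In all, 56 genes were not tested, of which 41 had a count somewhere. Of these, 13 reached at least 5 counts in a library: Cyp17a1, Cyp26a1, Cyp26c1, Cyp2b10, Cyp2c29, Cyp2c38, Cyp2c50, Cyp2c68, Cyp2d11, Cyp3a11, Cyp3a13, Cyp3a25 and Cyp4f18. Cyp2b10, the phenobarbital-inducible enzyme of liver, had 3, 6 and 8 counts untreated and 4, 9, 5 and 14 treated, and Cyp26a1, which degrades retinoic acid, had 9, 3 and 3 against 11, 2, 7 and 2. In both genes the groups overlapped. The other 15 genes were at 0 in every library: Cyp11b2, Cyp19a1, Cyp21a1, Cyp2a22, Cyp2c39, Cyp2c67, Cyp2t4, Cyp2w1, Cyp3a16, Cyp3a41b, Cyp3a57, Cyp4a29, Cyp4a30b, Cyp4f37 and Cyp4f40. A 0 in a single library allows an expected count of up to 3, and a 0 in all 7 libraries allows less in each.

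Summed over the 97 genes, P450 transcripts were less abundant in treated kidneys. The sum was 10120, 8873 and 9572 CPM untreated and 7619, 7406, 7876 and 7830 CPM treated. Each treated library lay below each untreated one, and the means were 9522 ± 625 (SD, n = 3) and 7683 ± 216 CPM (SD, n = 4), a ratio of 0.807. Without Cyp4b1 the sums were 6293 to 7303 CPM untreated and 5787 to 6271 CPM treated, apart only by a narrow gap, with a ratio of 0.881. That remainder includes Cyp2e1, with means of 1248 CPM untreated and 741 CPM treated. A sum without both genes was not taken, so the drop is not shown to be spread over the family. By subfamily, the summed CPM had ratios of 0.629 for Cyp4b, 0.594 for Cyp2e and 0.818 for Cyp2j, each with separate groups. The ratios for Cyp2d (0.869), Cyp2a (0.907) and Cyp4a (1.11) came with overlapping groups. For all 97 genes the ratio was 0.606 in the deposited TPM, a scale on which the median tested gene was lower by 0.31 (log2 of TPM + 1) in treated kidneys, and 0.799 in TPM rescaled without short non-coding genes. The sum was not tested.

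Gene by gene, 1 P450 gene rose and 3 fell. These calls came from edgeR's quasi-likelihood test over 15399 genes at an adjusted p under 0.05 (Benjamini-Hochberg). Cyp2j9 was higher, and Cyp4b1, Cyp2e1 and Cyp2j13 were lower. The 4 calls among 41 tested genes (9.76%) stood against 7.16% called among all genes tested, of which 3.58% were higher and 3.57% lower, so the share among P450 genes was near the background. With total counts in place of TMM scaling the split was 1 higher and 6 lower. On log2(TPM + 1) it was also 1 and 6, but partly with other genes. There Cyp2d10 was called higher in place of Cyp2j9. Cyp4a14 and Cyp4f15 were called lower in place of Cyp2j5 and Cyp2j11. The number called over all genes was 1102, but 692 without treated library 1 and 710 without treated library 2. Among P450 genes none was called higher without untreated library 2, 2 were without untreated library 1 or without treated library 4, and 5 were called lower without treated library 3.

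Treated and untreated values were fully separate in 11 of the 41 genes (26.8%), 5 of them higher (Cyp2j9, Cyp2d26, Cyp20a1, Cyp4f17 and Cyp4v3) and 6 lower (Cyp4b1, Cyp2e1, Cyp2j13, Cyp2d12, Cyp2j5 and Cyp2j11). Over all genes tested 18.6% were separate, 9.46% higher and 9.11% lower. The log2 fold change was positive in 25 P450 genes and negative in 16, with a median of 0.12 against -0.00 over all genes. The median size was 0.23 against 0.13, but the median standard error was also larger, at 0.17 against 0.11. The sum over the family was thus lower while more of its genes had a positive than a negative fold change. Of the 5 genes with the highest TPM, Cyp4b1, Cyp2j5, Cyp2e1 and Cyp2a4 had negative fold changes and Cyp4a10 a positive one.

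**Figure D2:**
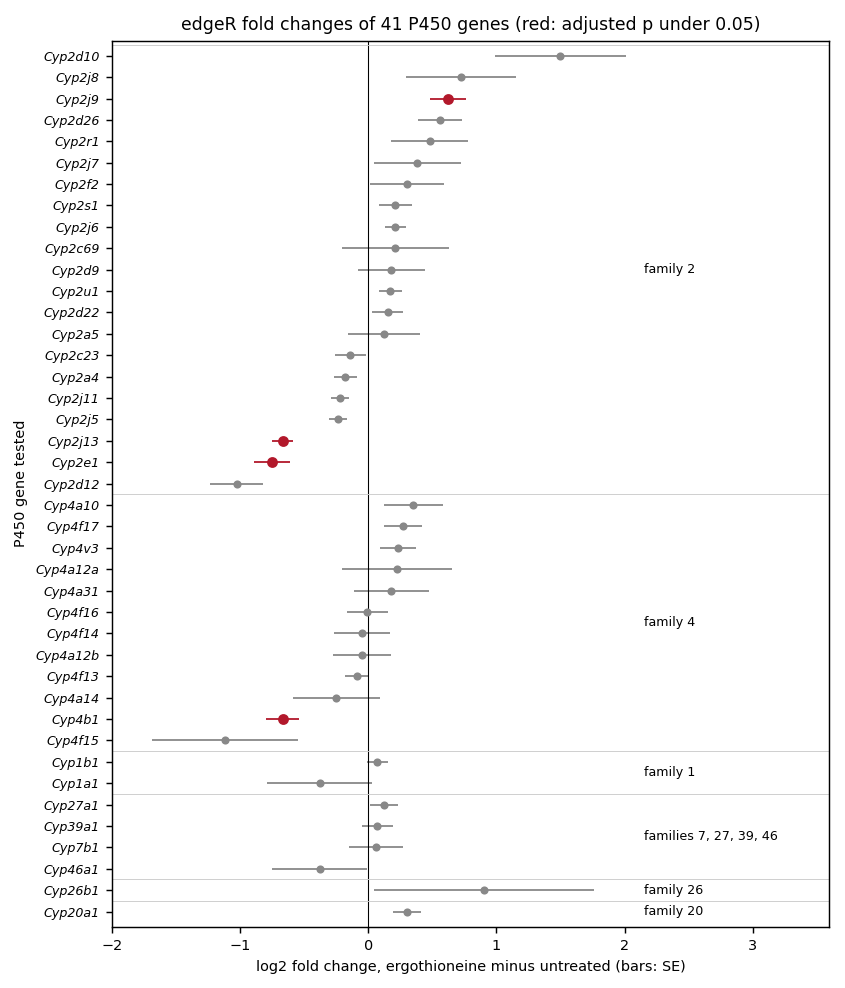
Log2 fold change (ergothioneine minus untreated, edgeR, bars are SE) of the 41 tested P450 genes, grouped by family. Red marks the 4 genes with an adjusted p under 0.05: Cyp2j9 to the right of 0, and Cyp4b1, Cyp2e1 and Cyp2j13 to the left; genes with wide bars are those with few counts.

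Cyp4b1 (ENSMUSG00000028713, chr4:115624725-115647723, minus strand, GRCm38) had 2817, 2289 and 3279 CPM in untreated kidneys. The treated libraries had 1789, 1600, 2089 and 1559 CPM, all below the lowest untreated value. The mean fell from 2795 ± 495 (SD, n = 3) to 1759 ± 242 CPM (SD, n = 4), which is a log2 fold change of -0.67 ± 0.13 (SE; edgeR, adjusted p = 0.0128). Without untreated library 1 the adjusted p was 0.0677, and with limma-voom it was 0.0508.

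Cyp2e1 (ENSMUSG00000025479, chr7:140763739-140774987, plus strand) had 1446, 1055 and 1242 CPM untreated and 722, 805, 841 and 597 CPM treated. Every treated value lay below every untreated one, with the lowest in treated library 4. From 1248 ± 195 to 741 ± 108 CPM the log2 fold change was -0.75 ± 0.14 (edgeR, adjusted p = 0.0139). The adjusted p rose to 0.0775 without untreated library 3 and to 0.0541 with the range of the library name numbers as a block.

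Cyp2j13 (ENSMUSG00000028571, chr4:96027534-96077546, minus strand), of the epoxygenase subfamily, was the one P450 gene called under every alternative run. It had 332, 397 and 422 CPM untreated against 228, 228, 260 and 252 CPM treated, with a gap between the groups and a narrow treated range. The log2 fold change was -0.67 ± 0.08 (384 ± 46.6 against 242 ± 16.5 CPM, edgeR, adjusted p = 9.26e-05). Over the 19 alternatives the adjusted p-values reached at most 0.00977.

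Cyp2j9 (ENSMUSG00000015224, chr4:96568429-96591578, minus strand), of the same subfamily, was the P450 gene that rose. Its CPM values were 16.2, 12.7 and 13.0 untreated and 24.1, 21.1, 16.5 and 24.4 treated. The groups were separated narrowly, since treated library 3 lay just above untreated library 1. Means of 14 ± 1.9 and 21.5 ± 3.66 CPM gave a log2 fold change of 0.62 ± 0.14 (edgeR, adjusted p = 0.0132). The call was lost with untreated library 2 left out (adjusted p = 0.0683), with untreated library 3 left out (0.0758) and on log2(TPM + 1), where the fold change was 0.22 and the adjusted p 0.374.

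**Figure D3:**
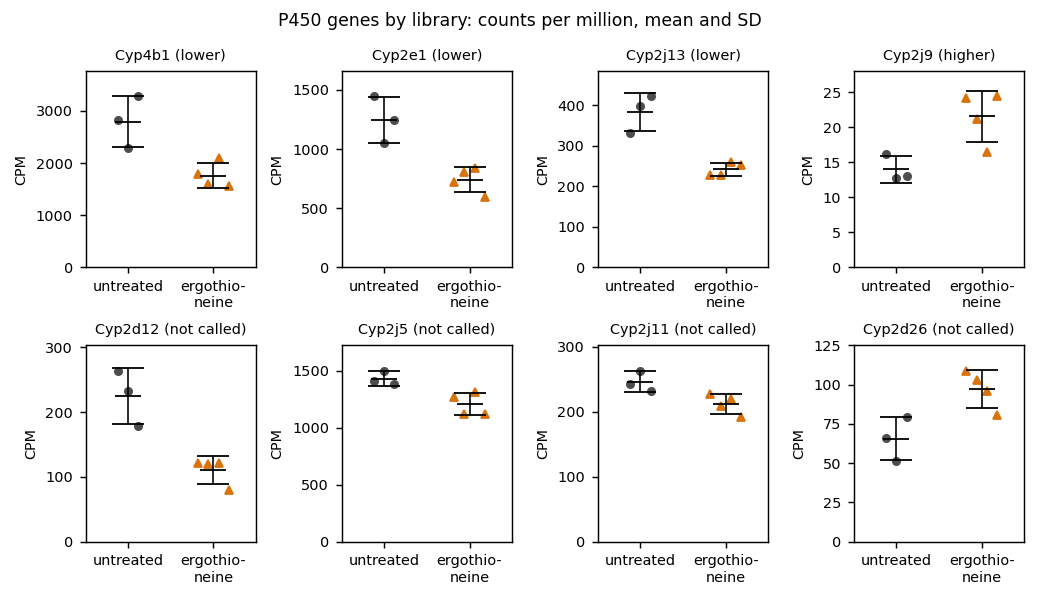
CPM per library of the 4 P450 genes that passed the test and 4 whose groups did not overlap but which did not pass it; circles are untreated and triangles ergothioneine libraries, bars are the mean and SD. All vertical axes start at 0. In Cyp4b1, Cyp2e1 and Cyp2j13 every triangle is below every circle, and in Cyp2j9 every triangle is above.

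Several P450 genes lay just outside the threshold. Cyp2d12, of the Cyp2d subfamily of drug-oxidising enzymes, had 264, 232 and 179 CPM untreated and 122, 120, 121 and 79.2 CPM treated. No treated library reached the lowest untreated one. Its log2 fold change of -1.03 ± 0.21 had an adjusted p of 0.0505 by edgeR, which became 0.0498 with untreated library 3 left out and 0.00901 with treated library 4 left out. It was called lower in 9 of the 19 alternatives. Of its windows 17.9% occur in other genes, 11.1% in Cyp2d9 alone.

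Cyp2j5 and Cyp2j11, both of the epoxygenase subfamily, differed little but without overlap. Cyp2j5 had 1411, 1503 and 1381 CPM untreated and 1274, 1126, 1315 and 1122 CPM treated (log2 fold change -0.24 ± 0.07, edgeR, adjusted p = 0.057). Cyp2j11 had 243, 263 and 232 CPM untreated and 227, 208, 219 and 191 CPM treated (-0.22 ± 0.07, adjusted p = 0.0523). Both passed the threshold with total counts in place of TMM scaling (edgeR, 0.0415 and 0.0399), with no filter (edgeR, 0.0239 and 0.0245) and with DESeq2 (0.00869 and 0.0359). Of the 19 alternatives Cyp2j5 was called in 5 and Cyp2j11 in 4. In the other direction stood Cyp2d26, with 66.2, 51.7 and 79.2 CPM untreated and 109, 103, 95.9 and 80.6 CPM treated. Its groups were separate by a small step, and its log2 fold change of 0.56 ± 0.17 had an adjusted p of 0.117 by edgeR. Cyp2d26 passed in 3 of the 19 alternatives: with DESeq2 (adjusted p = 0.000295), without untreated library 3 and with the replicate number as a block.

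The remaining genes with a fold change of at least 0.5 in size varied widely between libraries or had few counts. Cyp26b1, which breaks down retinoic acid, had 12.4, 7.24 and 22.4 CPM untreated and 56.0, 16.6, 26.8 and 5.56 CPM treated. The treated libraries included both the highest and the lowest value (log2 fold change 0.90 ± 0.86, edgeR, adjusted p = 0.651). Cyp2d10 (0.394 ± 0.225 against 1.12 ± 0.619 CPM, log2 fold change 1.5 ± 0.51, adjusted p = 0.0909), Cyp2j8 (0.72 ± 0.43, adjusted p = 0.373) and Cyp4f15, a fatty acid hydroxylase (-1.12 ± 0.57, adjusted p = 0.295), all had means of at most 1.12 CPM. Each of Cyp2d10 and Cyp4f15 was fitted in 18 alternatives and passed in 3. Cyp2d10 passed without treated library 4, with no filter and on log2(TPM + 1). Cyp4f15 passed without treated library 3 and on log2 TPM with either pseudocount.

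The Cyp2j genes form one cluster, chr4:96027534-96664154, in the order Cyp2j13, Cyp2j12, Cyp2j7, Cyp2j11, Cyp2j8, Cyp2j6, Cyp2j9 and Cyp2j5. Of its 8 genes 7 were tested, and 1 rose while 1 fell. Cyp2j13 and Cyp2j9 are 491 kb apart, with 5 other P450 genes between them. Between these 2 calls the fold changes did not follow position: Cyp2j7 had 0.38 ± 0.34, Cyp2j11 -0.22 ± 0.07, Cyp2j8 0.72 ± 0.43 and Cyp2j6, an epoxygenase found in many tissues, 0.21 ± 0.08. Cyp2j5 at the far end had -0.24 ± 0.07. None of these 5 passed the edgeR test. The 3 genes with the highest TPM in this cluster (Cyp2j5, Cyp2j11 and Cyp2j13) had negative fold changes, and the other 4 tested had positive ones.

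The sequence before the start of the 2 called Cyp2j genes is printed because these genes of the same cluster moved in opposite directions. Both run 5′ to 3′ on the minus strand of GRCm38, were taken from RefSeq (GRCm38.p6) and hold only bases before the start of the GENCODE gene, with matches to a searched motif in capitals. The Cyp2j13 stretch is chr4:96077548-96077797 and that of Cyp2j9 chr4:96591579-96591735. Cyp2j13 had 2 RefSeq windows, of which only the window nearest the start of the GENCODE gene was printed and searched for the positions below.
Cyp2j13: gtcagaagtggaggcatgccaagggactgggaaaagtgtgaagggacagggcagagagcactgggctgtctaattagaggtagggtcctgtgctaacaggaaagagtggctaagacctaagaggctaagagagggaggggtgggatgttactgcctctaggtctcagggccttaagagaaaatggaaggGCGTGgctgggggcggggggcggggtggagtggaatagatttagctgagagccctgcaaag
Cyp2j9: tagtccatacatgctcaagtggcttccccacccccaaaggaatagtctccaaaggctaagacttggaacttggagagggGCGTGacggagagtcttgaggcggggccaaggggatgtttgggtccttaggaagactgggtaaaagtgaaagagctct
The search used 4 motifs on both strands of the 250 bases before the RefSeq start, none of which contains another: GCGTG (the core bound by the aryl hydrocarbon receptor with Arnt), CACGTG (the E-box of clock factors), and TTATGTAA and TTACGTAA (forms of the D-box bound by Dbp, Tef and Hlf). GCGTG was found once in each, with its first base 61 bases before the end of the Cyp2j13 stretch and 78 bases before the end of the Cyp2j9 stretch. It was absent from the windows of Cyp2e1 and Cyp4b1. Over all genes 30.9% of 27025 held GCGTG, against 20% of the 75 P450 genes with a RefSeq window (15 genes). CACGTG occurred in 6.86% of all genes and in 2 of 75 P450 genes. TTATGTAA occurred in 0.977% and TTACGTAA in 0.118% of all genes, and in 0 of the 75 P450 windows. A match of letters describes these windows and is no evidence of binding.

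The Cyp4a cluster, chr4:115242084-115621602, lies next to Cyp4b1 on the same chromosome and holds hydroxylases that act on arachidonic acid and other fatty acids and are known targets of the receptor Ppara. Of its 8 genes 5 were tested and none was called, with log2 fold changes from -0.25 to 0.35. Cyp4a10 had 747, 655 and 570 CPM untreated and 667, 818, 708 and 1165 CPM treated (0.35 ± 0.23, edgeR, adjusted p = 0.485). Treated library 4 stood above all others there, and it did so again for Cyp4a31, with 599, 433 and 405 CPM untreated and 476, 458, 437 and 801 CPM treated (0.18 ± 0.29, adjusted p = 0.804). Without treated library 4 the fold change of Cyp4a31 was -0.07. Cyp4a14 had 542, 520 and 321 CPM untreated and 366, 389, 241 and 560 CPM treated (-0.25 ± 0.34, adjusted p = 0.772), with overlapping groups. On log2(TPM + 1) it was called lower (limma, -0.63, adjusted p = 0.0398), but not after rescaling without short non-coding genes (-0.26, adjusted p = 0.791). Cyp4a12a, the main arachidonate hydroxylase of male mouse kidney, had 112, 122 and 97.0 CPM untreated and 85.5, 69.8, 150 and 207 CPM treated (0.22 ± 0.43, adjusted p = 0.848). The treated libraries thus lay on both sides of the untreated ones. Cyp4a10 shares 30.5% of its windows with other genes and Cyp4a31 21.8%, in both cases mostly with Cyp4a32.

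In the Cyp2d cluster, chr15:82370527-82794294, 5 of 8 genes were tested, and the fold changes spanned -1.03 for Cyp2d12 to 1.5 for Cyp2d10. Cyp2d9, known as a male-specific testosterone hydroxylase, had 189, 113 and 149 CPM untreated and 192, 189, 181 and 118 CPM treated. The groups overlapped throughout (0.18 ± 0.26, edgeR, adjusted p = 0.784), and 29% of its windows occur in other genes.

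**Figure D4:**
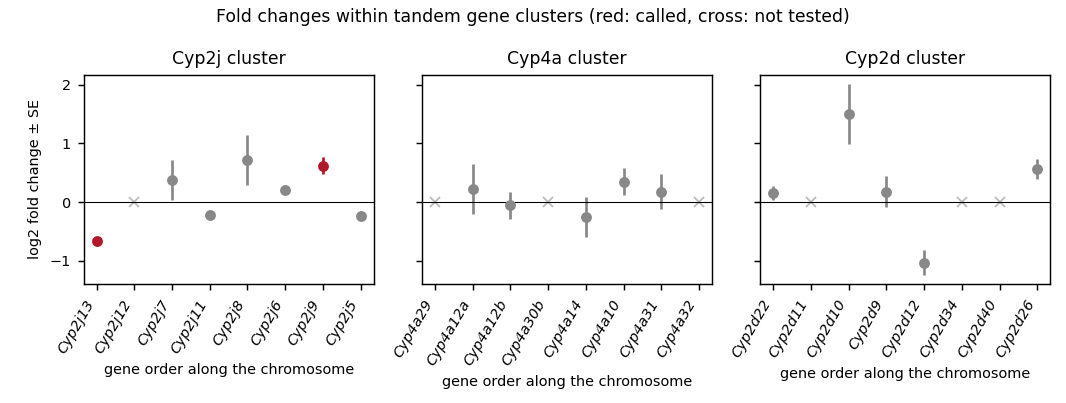
Log2 fold changes ± SE of the genes in the Cyp2j, Cyp4a and Cyp2d clusters, in the order of the genes along the chromosome; red marks genes that passed the test and crosses genes that were not tested. In the Cyp2j cluster called genes stand on both sides of 0, while the tested Cyp4a genes stay between -0.25 and 0.35.

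Outside these clusters Cyp2a4 was the most abundant gene that did not pass, with 741, 682 and 658 CPM untreated and 692, 634, 619 and 507 CPM treated (-0.18 ± 0.09, edgeR, adjusted p = 0.277). It shares 36.1% of its windows with Cyp2a5, whose log2 fold change was 0.12 ± 0.28. Cyp2c23, an arachidonate epoxygenase of kidney, had 41.9 ± 8.49 and 38 ± 3.41 CPM (-0.14 ± 0.12, adjusted p = 0.594). The aryl hydrocarbon receptor targets Cyp1a1 and Cyp1b1 had -0.38 ± 0.41 and 0.07 ± 0.08, and neither passed.

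Of the remaining genes with separate groups, Cyp20a1, an orphan enzyme without a known substrate, had 12.2, 15.6 and 16.0 CPM untreated and 16.5, 18.9, 18.6 and 17.4 CPM treated (0.30 ± 0.11, edgeR, adjusted p = 0.106). Cyp4f17, of a fatty acid hydroxylase subfamily, had 4.47 ± 0.138 and 5.38 ± 0.24 CPM (0.27 ± 0.15, adjusted p = 0.329), and Cyp4v3, a fatty acid hydroxylase of the eye and other tissues, had 6 ± 0.413 and 7.07 ± 0.799 CPM (0.23 ± 0.14, adjusted p = 0.381). All 3 lay higher in each treated library than in any untreated one, by small steps. Cyp2r1, which hydroxylates vitamin D, had 1.47 ± 0.655 and 2.04 ± 0.484 CPM (0.48 ± 0.30, adjusted p = 0.415) with overlapping groups. The other tested genes (Cyp2c69, Cyp2d22, Cyp2f2, Cyp2s1, Cyp2u1, Cyp4a12b, Cyp4f13, Cyp4f14 and Cyp4f16) had fold changes from -0.09 to 0.30 and did not pass.

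The 4 tested genes of sterol and bile acid metabolism had fold changes from -0.38 to 0.12, and none was called. Cyp7b1, which hydroxylates oxysterols, had 169, 109 and 97.7 CPM untreated and 120, 126, 131 and 146 CPM treated. Untreated library 1 was above and the other untreated libraries were below all treated ones (0.06 ± 0.21, edgeR, adjusted p = 0.921). Without untreated library 1 Cyp7b1 was called higher (0.34, adjusted p = 0.023). Cyp27a1, a mitochondrial sterol hydroxylase, had 32.8 ± 5.14 and 35.6 ± 3.69 CPM (0.12 ± 0.11), Cyp39a1, another oxysterol hydroxylase, had 0.07 ± 0.12, and Cyp46a1, a cholesterol hydroxylase of brain, had -0.38 ± 0.37.

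Counts at the edge of detection were looked at by library. Of the 41 untested genes with any count, 19 had counts in treated libraries only, 14 of them in at least 2, and 7 had counts in untreated libraries only. This is 46.3% and 17.1%, against 22.5% and 12% of the 7719 untested genes of any kind with a count. The 4 treated libraries held 72940165 counts and the 3 untreated ones 48177010, so a rare transcript had more chance to be counted in a treated library. The 19 genes together had 21, 17, 49 and 10 counts in treated libraries 1 to 4. Many belong to subfamilies typical of liver, such as Cyp2c50 (3, 2, 10 and 1 counts), Cyp3a25 (4, 0, 9 and 0), Cyp2c29 (1, 1, 5 and 1) and Cyp8b1 (3, 1, 3 and 1). Cyp3a11, the main Cyp3a enzyme of mouse liver, had 0, 3 and 0 counts untreated and 4, 4, 37 and 0 treated. Treated library 3 held the most counts in the sum and in each of these genes except Cyp8b1, where it tied with treated library 1.

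Of 12 hepatocyte markers, only Ahsg, Cps1 and Mup3 had counts in treated libraries alone, and they are given for that reason. Ahsg, a liver plasma protein, had 0 counts in each untreated library and 13, 5, 51 and 1 treated, and Cps1, a urea cycle enzyme, had 6, 11, 39 and 4. Mup3, a urinary protein made in liver, had 2, 5, 36 and 1. Albumin transcripts (Alb) reached 36.3 CPM in treated library 3 against 8.07 to 13.4 CPM in the other 6. Apoa1, Apoa2 and Fgb were also highest in treated library 3. The markers Apob, Ttr, Serpina1a, Fga and Trf were highest in other libraries, such as Ttr in untreated library 1 (35.1 CPM). Over the 12 hepatocyte markers the summed level was 1439 to 1590 CPM untreated and 1335 to 1549 CPM treated, most of it from Apob, which the kidney also expresses. Without Apob it was 151 to 174 and 134 to 199 CPM, highest in treated library 3. Of 8 tested markers 1 fell (Serpina1a) and none rose (12.5% called, against 7.16% of all genes tested). The 19 genes were picked by their counts and are given without a test or a fold, and the part of liver RNA in them was not tested.

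**Figure D5:**
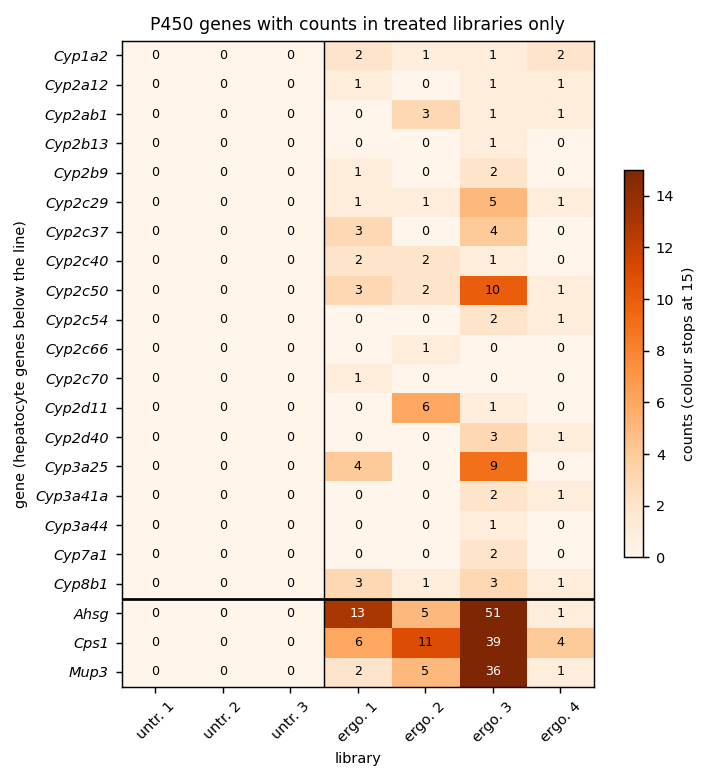
Counts per library (untr. is untreated, ergo. is ergothioneine) of the 19 untested P450 genes with counts in treated libraries only, and below the line 3 hepatocyte genes. Both sets were chosen for counts in treated libraries only. The darkest column is treated library 3, for P450 and hepatocyte genes alike.

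Of 10 electron donors of P450 enzymes 1 fell, 1 rose and the other 8 did not pass (20% called, against 7.16% of all genes tested). Por, the reductase of all microsomal P450 enzymes, had 417, 362 and 381 CPM untreated and 306, 291, 311 and 271 CPM treated. Its groups were well apart, and the log2 fold change was -0.39 ± 0.07 (387 ± 28.2 against 295 ± 18.1 CPM, edgeR, adjusted p = 0.00125). Cyb5b, the outer mitochondrial cytochrome b5, rose from 534 ± 16.5 to 659 ± 44.6 CPM (0.30 ± 0.07, adjusted p = 0.00824). The median over the list was 0.03, against -0.00 over all genes.

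Of 12 genes of haem synthesis and breakdown, 1 rose and none fell (8.33% called, close to the 7.16% over all genes), with a median of -0.00. The riser was Hmox1, the inducible haem oxygenase, from 19.4 ± 1.85 to 25.8 ± 2.03 CPM (0.41 ± 0.09, edgeR, adjusted p = 0.0099). Alas1, the first enzyme of haem synthesis, had 290, 176 and 240 CPM untreated and 143, 135, 186 and 140 CPM treated. Its groups overlapped through untreated library 2 and treated library 3 (-0.64 ± 0.21, adjusted p = 0.154).

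Of 28 regulators of P450 genes 24 were tested, 8 fell and 1 rose, with a median of -0.16. The share called was 37.5%, against 7.16% of all genes tested. Ppara, the fatty acid receptor that drives Cyp4a genes, fell by 0.58 ± 0.11 on the log2 scale (112 ± 19.1 against 74.9 ± 6.03 CPM, edgeR, adjusted p = 0.0128). With untreated library 1 left out its adjusted p was 0.0504. Dbp, Tef and Hlf, the D-box factors that drive many P450 genes in liver and kidney in daily rhythm, fell by 1.84, 0.80 and 0.51 on the log2 scale. The orphan receptors Nr1d2 (-0.65 ± 0.06) and Rora (-0.24 ± 0.05) and the oestrogen receptor Esr1 (-0.77 ± 0.09) fell as well. Vdr, the vitamin D receptor, rose (0.26 ± 0.07, adjusted p = 0.025), and lost the call when untreated 2, untreated 3 or treated 1 was left out (up to 0.105). The xenobiotic receptors did not pass: Ahr had 13.3 ± 1.14 and 16.1 ± 0.833 CPM (0.27 ± 0.10, adjusted p = 0.108) and Nr1i2 0.30 ± 0.16 (0.323), while Nr1i3 had at most 14 counts. Hnf4a, a factor that keeps liver and proximal tubule genes active, did not pass either (-0.07 ± 0.06). The part of these regulators in the P450 levels was not tested.

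Of 18 other enzymes that oxidise or hydrolyse drugs and lipids 17 were tested, 6 fell and 1 rose, with a median of -0.17. The share called was 41.2%, against 7.16% of all genes tested. Adh1, an alcohol and retinol dehydrogenase, fell from 323 ± 21.9 to 233 ± 16.7 CPM (-0.47 ± 0.07, edgeR, adjusted p = 0.000263). The flavin monooxygenases Fmo1 (-0.27 ± 0.08), Fmo2 (-0.33 ± 0.09) and Fmo5 (-0.44 ± 0.09) and the carboxylesterases Ces1d (-0.39 ± 0.06) and Ces1f (-0.37 ± 0.07) also fell, and Aldh1a7, an aldehyde dehydrogenase, rose (0.56 ± 0.10). The 3 Fmo calls were each lost without at least 1 library: Fmo1 when untreated 1, untreated 3, treated 1 or treated 4 was left out (adjusted p up to 0.146), Fmo2 for untreated 1, untreated 3 or treated 1 (up to 0.149) and Fmo5 for untreated 2 (0.0635).

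Of 16 enzymes of epoxide and eicosanoid metabolism, which handle products of P450 enzymes, 14 were tested. None was called by edgeR. An unadjusted edgeR p under 0.05 was found in 3 of the 14, a share near that of all genes tested (3201 of 15399). Ephx2, which opens the epoxides made by Cyp2j and Cyp2c enzymes, had 374 ± 21.1 and 348 ± 6.51 CPM (-0.10 ± 0.06, adjusted p = 0.331). Of 28 tested steroid and retinoid enzymes (of 29), 4 rose and 1 fell, with a median of -0.04. The share called was 17.9%, against 7.16% of all genes tested. The risers all act on retinoids: Lrat, which esterifies retinol, from 5.11 ± 0.97 to 10.7 ± 1.99 CPM (1.06 ± 0.17, adjusted p = 0.00107), and the retinal and retinol oxidoreductases Dhrs3 (0.46 ± 0.07), Rdh10 (0.43 ± 0.08) and Rdh11 (0.36 ± 0.09). Rdh11 lost the call in 5 of the 7 fits that left out a library (untreated 1 and 2, treated 1, 2 and 4; up to 0.0881). Hsd3b3, a hydroxysteroid dehydrogenase, fell from 119 ± 3.26 to 76.2 ± 6.65 CPM (-0.65 ± 0.07, adjusted p = 1.17e-05). All 5 P450 genes listed from outside the naming rule were tested and none was called.

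Markers of the cells a kidney sample can hold are given beside these results. The share of tested markers called was 12.5% for the first and 37.5% for the last proximal segments. It was 33.3% for thick limb, 30% for distal and collecting duct, 75% for adipocyte and 0% for adrenal cortex markers. Over all genes tested it was 7.16%. Of 8 markers of the first proximal tubule segments 1 fell and none rose, with summed levels of 16717 to 20207 CPM untreated and 16466 to 18241 CPM treated. Of 8 markers of the last proximal segment 3 fell, among them Slc7a13 (-0.56 ± 0.09) and Slc22a30 (-0.61 ± 0.07), with sums of 12127 to 12964 CPM untreated and 10922 to 13801 CPM treated. Most of that sum is Kap, a very abundant transcript of male mouse kidney. With Kap, itself not called (0.12 ± 0.10), the sums overlapped, with a ratio of 0.974. Without Kap the other 7 markers summed to 4056 to 4104 CPM untreated and 2924 to 3151 CPM treated, with no overlap and a ratio of 0.741. The largest part of that smaller sum came from 1 of the 3 markers that fell. Of the 8 markers 2 had a positive fold change, Slc22a7 (0.15 ± 0.37) and Kap, and Slc5a1 had -0.02 ± 0.07. Of 6 thick limb markers 2 rose and of 10 distal and collecting duct markers 3 rose, with summed levels of 1385 to 1496 CPM untreated and 1641 to 1896 CPM treated for the latter. Both thick limb calls (Slc12a1 and Cldn10) were lost when untreated 3, treated 1 or treated 2 was left out (adjusted p up to 0.0674 and 0.147). The distal marker Atp6v1g3 lost its call when untreated 1, untreated 3 or treated 1 was left out (up to 0.0995). Of 10 adipocyte markers 8 were tested and 6 fell, with sums of 77.8 to 96.1 against 40.5 to 50.9 CPM. Of 7 adrenal cortex markers 4 were tested and none was called, with sums of 50.7 to 54.3 CPM untreated and 46.8 to 51.5 CPM treated, mostly from Fdx1 and Scarb1, which other cells also make. Star had 6 to 37 counts and Akr1b7 13 to 30 counts per library. Mc2r had at most 4 counts, Hsd3b1 at most 2, and Nr5a1 2 counts in untreated library 1 and 0 elsewhere. In whole kidney, fewer cells of a type and less P450 RNA per cell cannot be told apart, and the part of these markers in the P450 differences was not tested.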

How the data were processed

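RNA came from 7 frozen mouse kidneys. Per the labels' protocols, libraries were stranded, depleted of ribosomal RNA and amplified for 10 cycles. The submitters' processing notes name STAR 2.7.10a, RSEM 1.3.1, Salmon 1.10.1 and GRCm38 among other tools, with no annotation or strand setting. The authors deposited expected counts, in which reads of similar genes are split, and TPM, in which short RNA weighs strongly. GENCODE M21 held 45143 of the 45706 identifiers.

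Expected counts were rounded and fitted with edgeR 4.0.16 (R 4.3.3): filterByExpr by group, TMM, robust quasi-likelihood F test, Benjamini-Hochberg over 15399 genes, threshold 0.05. The SE is the log2 fold change over the square root of F (median 0.11). Within groups, libraries differed by 7.48 to 25.4 times counting noise (chi-square per degree of freedom), so none was a copy. The procedure was tested on simulated data.

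The members and all lists were chosen with earlier results of these data known. The rule names P450 genes past the threshold, the 10 with the highest mean TPM, those with a log2 fold change of at least 0.5 in size, steroid-synthesis genes with a count, untested genes with at least 5 counts in a library, and list genes past the threshold. All other genes given with values were chosen after these were seen. List counts include 2 genes that are not reported by name here.

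As alternatives, 19 in all, were run DESeq2 1.42.0, limma 3.58.1 (voom, and trend on log2 TPM with pseudocounts of 1 and 0.1 and after rescaling), RLE and total counts, no filter, at least 30 counts in 3 libraries, each library left out, untreated library 3 alone, and blocks by replicate number or library name range. Proteins were not compared.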

Additional observations from a re-analysis of the deposited data

Results flagged for a closer look

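In 4 of the 41 tested P450 genes, treated library 4 stood apart from the other 3 treated libraries by more than Dixon's criterion allows; chance gives such a gap in about 1 in 20 groups. Cyp2d12 had 79.2 CPM there against 120 to 122 CPM in the others, and Cyp2d9 had 118 CPM against 181 to 192 CPM. Cyp2c23 had 32.9 CPM against 39.1 to 40.3 CPM. Cyp4a31 was the exception in direction, with 801 CPM against 437 to 476 CPM. The untreated group, with 3 libraries, was too small for this check.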

How the results depend on the processing

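Against 1 P450 gene higher and 3 lower, DESeq2 called 2 higher and 6 lower. Total counts gave 6 lower, log2(TPM + 1) 6 lower, log2(TPM + 0.1) 0 higher and 6 lower, and TPM rescaled without short non-coding genes 0 higher. With no filter 3 were higher. Leaving out 1 library gave 0 to 2 higher, 2 to 5 lower and 692 to 1103 genes called over all. That last count was 280 in rescaled TPM and 556 against untreated library 3 alone. The summed P450 ratio was 0.606 in TPM. The replicate number as a block gave 2 higher and 5 lower, but same-numbered libraries correlated at only 0.0548, -0.0972 and -0.00377, so the numbers do not pair them; the library name range as a block gave 2 higher.

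Genes that were not called changed sign: Cyp2d9 (-0.19), Cyp4a10 (-0.04) and Cyp4a31 (-0.19) on both TPM scales, Cyp4a31 also with the replicate block (-0.05) and without treated library 4 (-0.07, in a range of -0.07 to 0.38 over libraries left out), and Cyp4a14 against untreated library 3 alone (0.28). Cyp4a14 was called lower on both TPM scales (adjusted p = 0.0398 and 0.0389, limma) and with the replicate block (0.0014, edgeR). On the TPM scales the median over all genes shifted by -0.31 and -0.37, and by 0.00 after rescaling. Cyp4b1 missed the threshold in 4 of the 19 alternatives (adjusted p up to 0.069), Cyp2e1 in 4 (up to 0.0914), Cyp2j9 in 6 (up to 0.374) and Cyp2j13 in none, and none of these 4 changed sign. Of 266 list counts under the alternatives 220 stayed within 1.5 times. Causes were not tested. The 3 against 4 libraries, with a median standard error of 0.11, limit what could be called, and 56 P450 genes had too few counts.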
